A study of Mus musculus with 9 samples.

Results

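The genes described here are 10 members of the Notch pathway: the receptors Notch1 and Notch4, the ligands Dll1, Dll4, Jag1 and Jag2, and the target genes Hey1, Hey2, Heyl and Hes1. They were chosen by gene symbol, with earlier results of these data known, and each had a single row among the 18094 genes of the count table. The measurements were RNA sequencing counts from endothelial cells pulled with magnetic beads from fresh mouse hearts. The libraries fell into 3 groups of 3: hypertensive BPH/2J mice at 4 weeks of age, BPH/2J mice at 22 weeks, and normotensive BPN/3J mice at 22 weeks. No treatment or engineered allele is named for any group. Each blood pressure state is represented by 1 inbred line, so line and blood pressure cannot be told apart. No library came from BPN/3J mice at 4 weeks. The labels do not say whether the libraries of a group came from different animals or from pools, so p-values measure only the spread between these libraries.

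Notch receptors sit at the surface of a cell and are activated by Delta-like or Jagged ligands on a neighbouring cell. The bound receptor is cut first by an ADAM protease and then by gamma-secretase, and its freed inner part joins the DNA-binding protein RBPJ in the nucleus and switches on Hes and Hey genes, which encode transcriptional repressors. In blood vessels the pathway is known for restraining tip cells during sprouting and for setting arterial identity.

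Depth was similar across the 9 libraries, from 28806840 to 32913813 counts. Levels below are in CPM, read counts scaled to library depth, here after scaling by trimmed mean of M values (TMM), and are given as mean ± SD over 3 libraries. The 8 endothelial markers summed to 9040 to 9492 CPM in BPN/3J, 11161 to 11715 CPM in 4-week BPH/2J and 11474 to 11740 CPM in 22-week BPH/2J. These ranges did not overlap between BPN/3J and either BPH/2J group, but the markers did not all go 1 way. At an adjusted p of 0.05 in edgeR's quasi-likelihood test, 5 of the 8 were higher in 22-week BPH/2J than in BPN/3J. Esam and Cldn5 were lower. In 4-week BPH/2J against BPN/3J, 3 were higher and 1, Esam, was lower. Over all genes tested, 19.8% were higher and 18.2% lower in the first contrast, and 27.8% and 25.3% in the second. RNA of other heart cells was also present, and none of the markers of the other cell types was at 0 counts in every library of a group. The 12 cardiomyocyte markers summed to 855 to 1079 CPM in BPN/3J, 396 to 647 CPM in 4-week BPH/2J and 526 to 643 CPM in 22-week BPH/2J. The 10 macrophage and monocyte markers summed to 404 to 656 CPM, 447 to 809 CPM and 266 to 319 CPM in the same order. Their part in the differences below was not tested. In these bulk samples, fewer cells of a type and less RNA per cell cannot be told apart.

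Among the 10 genes, the clearest contrast was that of Heyl, which in BPN/3J stood at 53.5 ± 0.918 CPM and in BPH/2J at 17.8 ± 1.09 CPM at 4 weeks and 17.5 ± 1.22 CPM at 22 weeks. At 22 weeks, Jag1 and Dll4 were higher in BPH/2J than in BPN/3J, and Notch1, Jag2, Hey1 and Heyl were lower. Within BPH/2J, Dll1, Jag1 and Hes1 were higher at 22 than at 4 weeks and Notch1 was lower. Apart from Heyl, the widest difference was that of Dll1, which was 1.51-fold lower in 4-week BPH/2J than in BPN/3J. The 3 contrasts share libraries pairwise, so they are not independent of each other, and their values are set side by side without comparing them.

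**Figure D1:**
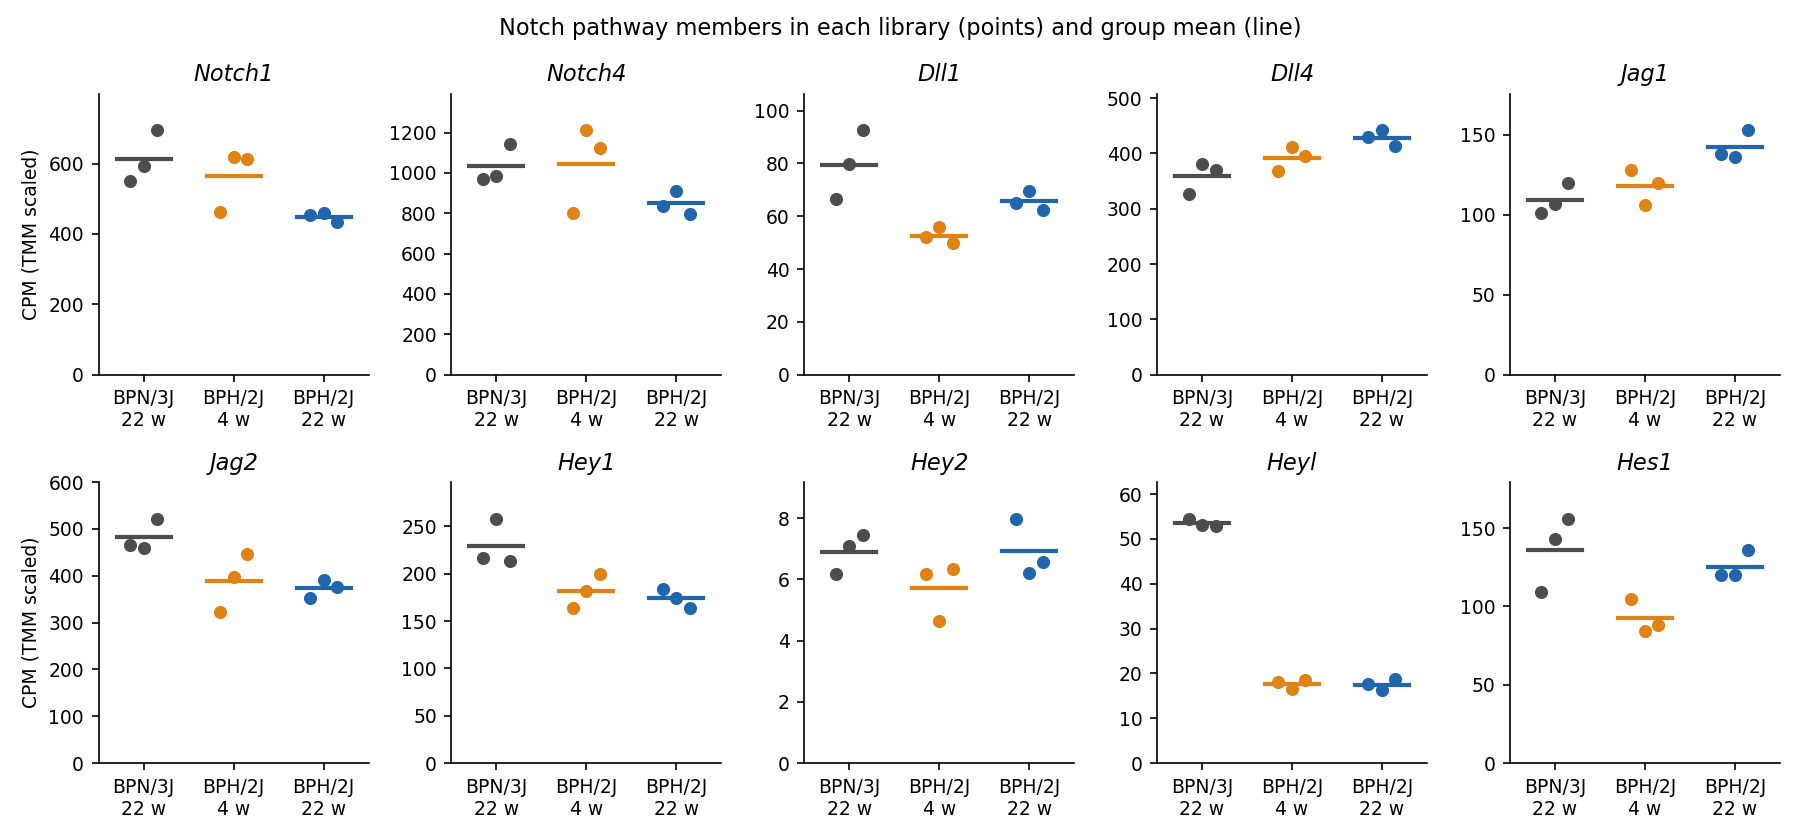
TMM-scaled CPM of the 10 Notch genes (vertical axis, linear from 0, set for each gene) in the 3 groups (horizontal axis), with 1 point per library and a line at the mean of each group of 3. Heyl sits between 52.9 and 54.5 CPM in the 3 BPN/3J libraries and between 16.3 and 18.7 CPM in the 6 BPH/2J libraries, while the points of Hey2 intermingle between groups.

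Dividing by the gene length in the count table puts the levels of different genes on a common scale. The order of the genes below rests on those lengths, which are not measured transcript lengths. In BPN/3J, Notch4 (128 ± 11.7 CPM per kb), Jag2 (119 ± 8.51), Hey1 (104 ± 11.4) and Dll4 (93.3 ± 7.35) were the most abundant, and neighbours among these 4 overlapped. Dll4 did not overlap Hes1, which followed at 66.8 ± 12.1 CPM per kb and Notch1 at 43.1 ± 5.18 CPM per kb. Dll1 (18.9 ± 3.10) and Jag1 (18.7 ± 1.64) were at levels that overlapped, and Heyl (10.5 ± 0.180) and Hey2 (2.71 ± 0.255) were the least abundant. In 4-week BPH/2J the order was led by Notch4 at 130 ± 26.6 CPM per kb and Dll4 at 102 ± 5.71 CPM per kb, and it ended with Heyl at 3.48 ± 0.213 and Hey2 at 2.24 ± 0.366 CPM per kb. In that group Dll4 overlapped Jag2 (96.1 ± 15.5 CPM per kb). In 22-week BPH/2J, Dll4 (111 ± 3.82 CPM per kb) and Notch4 (105 ± 7.22 CPM per kb) overlapped at the top, and Jag1 (24.4 ± 1.57 CPM per kb) stood above Dll1 (15.5 ± 0.854 CPM per kb).

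At 22 weeks, 2 of the 10 genes were called higher in BPH/2J than in BPN/3J, 4 were called lower and 4 were not called, at an adjusted p of 0.05 in the quasi-likelihood test of edgeR. Over all 15277 genes tested, 19.8% were called higher and 18.2% lower, together 38.0%. The median log2 difference of the 10 genes was -0.28, beside 0.02 over all genes tested. The groups did not overlap for 7 of the 10 genes, beside 55.7% of all genes. The authors' deposited table, from the same libraries, had the same 6 genes under a false discovery rate of 0.05, in the same directions.

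Within BPH/2J, 3 of the 10 genes were called higher at 22 than at 4 weeks and 1 lower. Of all genes tested, 19.9% were called higher and 21.1% lower, together 41.0%. The median log2 difference of the 10 genes was 0.05, beside 0.01 over all genes, and the groups did not overlap for 5 of them, beside 51.2% of all genes. When 4-week BPH/2J was set against 22-week BPN/3J, a contrast in which line and age both differ, 5 of the 10 genes were called lower and 0 higher, and none was higher at an unadjusted p under 0.05 or by DESeq2 or limma-voom. Of all genes, 25.3% were called lower and 27.8% higher in that contrast, together 53.1%. The median of the 10 genes was -0.29, beside 0.00 over all genes, and the groups did not overlap for 5 of them, beside 59.2% of all genes.

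**Figure D2:**
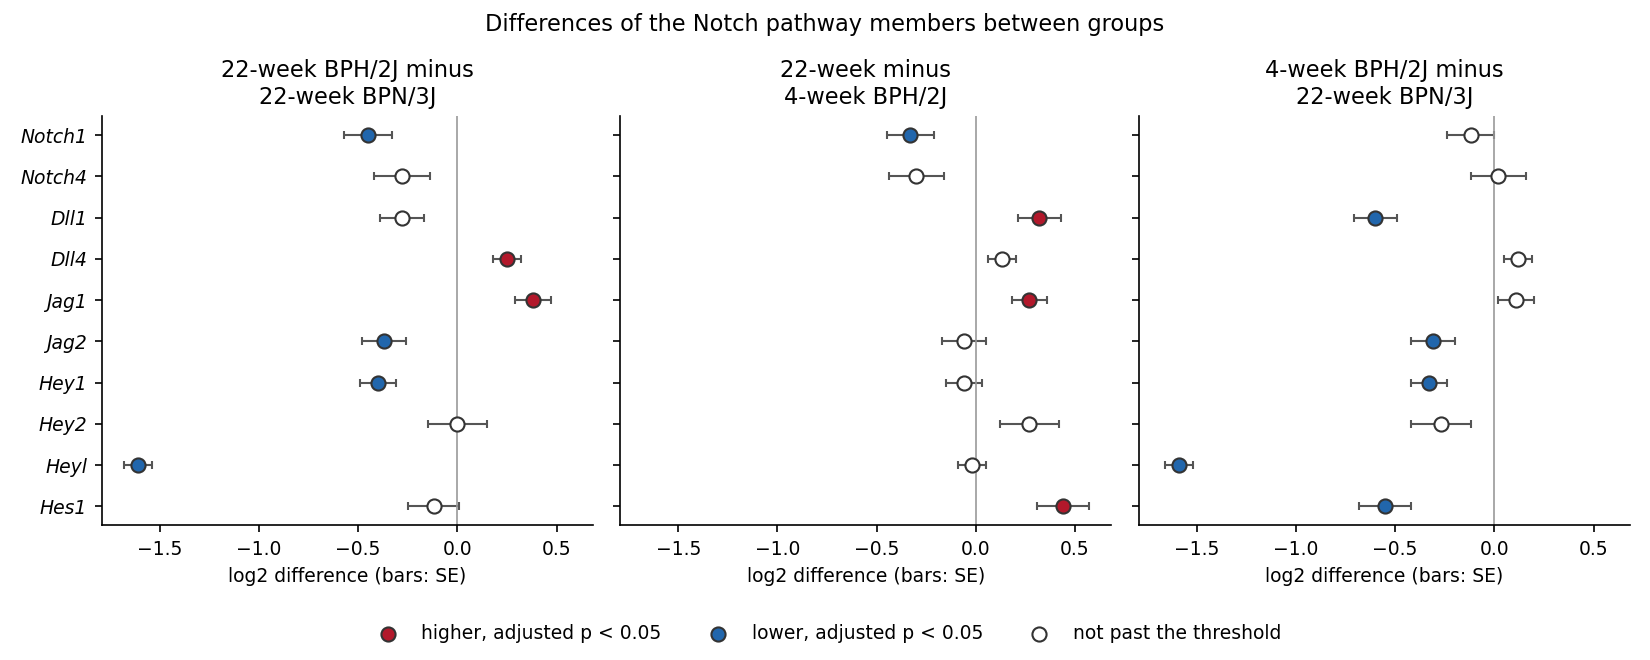
Log2 differences with standard errors for the 10 genes in the 3 contrasts, from edgeR's quasi-likelihood fit, with genes called higher in red, called lower in blue and not called in white. Heyl lies at -1.61 and -1.59 in the contrasts with BPN/3J and at -0.02 between the ages of BPH/2J, and the other 9 genes lie between -0.60 and 0.44.

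The receptors had their highest means outside 22-week BPH/2J. Notch1 (ENSMUSG00000026923, chromosome 2), a receptor known for arterial specification and for restraint of sprouting, was at 551, 593 and 695 CPM in replicates 1 to 3 of BPN/3J, at 461, 618 and 614 CPM in 4-week BPH/2J, and at 454, 459 and 434 CPM in 22-week BPH/2J. All 22-week BPH/2J libraries were below every library of the other groups, and the first 4-week library lay close above them. The log2 difference was -0.45 ± 0.12 (SE) between the lines at 22 weeks (adjusted p = 0.0134) and -0.33 ± 0.12 between the ages (adjusted p = 0.0461). For 4-week BPH/2J against BPN/3J it was -0.12 ± 0.12 (adjusted p = 0.426). The line difference lost its call without BPN/3J replicate 3 (adjusted p = 0.0561) or 22-week BPH/2J replicate 3 (adjusted p = 0.0539). The age difference lost its call without any 1 of 6 of the 9 libraries, namely BPN/3J replicate 2, 4-week replicates 2 and 3 and every 22-week BPH/2J replicate (adjusted p from 0.0637 to 0.168).

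Notch4 (ENSMUSG00000015468, chromosome 17), a receptor expressed mainly in endothelium, was at 971, 986 and 1141 CPM in BPN/3J, 803, 1212 and 1122 CPM in 4-week BPH/2J, and 836, 912 and 798 CPM in 22-week BPH/2J. The first 4-week library lay with the 22-week BPH/2J libraries and the other 4-week libraries lay with or above BPN/3J. The 22-week groups did not overlap, and their log2 difference of -0.28 ± 0.14 was not called (adjusted p = 0.13). The age difference was -0.30 ± 0.14 (adjusted p = 0.105), and that of 4-week BPH/2J against BPN/3J was 0.02 ± 0.14 (adjusted p = 0.923). Without 4-week replicate 1 both of the first 2 differences were called, with adjusted p = 0.0166 between the lines and, at a log2 difference of -0.46, adjusted p = 0.00189 between the ages.

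Among the ligands, the Delta-like and Jagged genes did not move as a block. Dll4 (ENSMUSG00000027314, chromosome 2), the main Delta-like ligand of arterial and sprouting endothelium, was at 327, 381 and 370 CPM in BPN/3J, 368, 412 and 395 CPM in 4-week BPH/2J and 429, 442 and 413 CPM in 22-week BPH/2J. Every 22-week BPH/2J library was above every library of BPN/3J and of 4-week BPH/2J, while the 4-week and BPN/3J libraries overlapped. It was 1.19-fold higher between the lines at 22 weeks (log2 difference 0.25 ± 0.07, adjusted p = 0.0218). The age difference of 0.13 ± 0.07 (adjusted p = 0.195) and that of 4-week BPH/2J against BPN/3J of 0.12 ± 0.07 (adjusted p = 0.181) were not called. The line difference lost its call without BPN/3J replicate 1 (adjusted p = 0.0823) or 22-week BPH/2J replicate 1 (0.0582) or replicate 2 (0.072). A transcript on the opposite strand, Gm14207, overlaps Dll4 in GENCODE M21 and averaged 9.44, 6.85 and 11.4 CPM in BPN/3J, 4-week and 22-week BPH/2J. The strand setting of the counting is not given in the sources used here, so reads of the overlapping pair cannot be told apart.

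Jag1 (ENSMUSG00000027276, chromosome 2), a Jagged ligand that in sprouting endothelium is known to oppose Dll4, was at 101, 107 and 120 CPM in BPN/3J, 128, 106 and 120 CPM in 4-week BPH/2J and 138, 136 and 153 CPM in 22-week BPH/2J. The 22-week BPH/2J libraries were above all others, and the 4-week and BPN/3J libraries overlapped. The gene was 1.31-fold higher between the lines (log2 difference 0.38 ± 0.09, adjusted p = 0.00609) and 1.21-fold higher at 22 than at 4 weeks (0.27 ± 0.09, adjusted p = 0.0281). For 4-week BPH/2J against BPN/3J the log2 difference was 0.11 ± 0.09 (adjusted p = 0.305). The line difference was called without each of the 9 libraries in turn. The age difference lost its call without 4-week replicate 2 (adjusted p = 0.106), 4-week replicate 3 (0.0576) or 22-week BPH/2J replicate 3 (0.1).

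Jag2 (ENSMUSG00000002799, chromosome 12), the other Jagged ligand, was at 466, 459 and 522 CPM in BPN/3J, 323, 398 and 447 CPM in 4-week BPH/2J and 353, 390 and 377 CPM in 22-week BPH/2J. All 6 BPH/2J libraries were below the BPN/3J libraries, and the BPH/2J ages overlapped. It was 1.29-fold lower at 22 weeks (log2 difference -0.37 ± 0.11, adjusted p = 0.0218) and 1.24-fold lower at 4 weeks against BPN/3J (-0.31 ± 0.11, adjusted p = 0.0345). The age difference was -0.06 ± 0.11 (adjusted p = 0.682). The 22-week difference lost its call without BPN/3J replicate 3 (adjusted p = 0.0825) or 22-week BPH/2J replicate 1 (0.0841) or 3 (0.062). The 4-week one lost it without any BPN/3J replicate or 4-week replicate 1 or 2 (adjusted p from 0.0508 to 0.12).

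Dll1 (ENSMUSG00000014773, chromosome 17), a Delta-like ligand known in arterial endothelium after birth, was at 66.4, 79.7 and 92.6 CPM in BPN/3J, 52.0, 56.0 and 49.7 CPM in 4-week BPH/2J and 65.2, 69.4 and 62.2 CPM in 22-week BPH/2J. The 4-week libraries were the lowest and overlapped neither 22-week group, and the 22-week groups overlapped each other. Dll1 was 1.51-fold lower in 4-week BPH/2J than in BPN/3J (log2 difference -0.60 ± 0.11, adjusted p = 0.000806), a call kept without each library in turn. It was 1.25-fold higher at 22 than at 4 weeks (0.32 ± 0.11, adjusted p = 0.0336), a call lost without 4-week replicate 1 or 3 or 22-week BPH/2J replicate 1 or 2 (adjusted p from 0.0511 to 0.11). The line difference at 22 weeks was -0.28 ± 0.11 (adjusted p = 0.059). Without BPN/3J replicate 1, the lowest of its group, that difference was -0.39 and was called (adjusted p = 0.00776).

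Of the target genes, the Hey genes and Hes1 encode basic helix-loop-helix repressors. Heyl (ENSMUSG00000032744, chromosome 4), a Hey family repressor known from both vascular smooth muscle and endothelium, was at 54.5, 53.0 and 52.9 CPM in BPN/3J, 18.1, 16.5 and 18.6 CPM in 4-week BPH/2J and 17.6, 16.3 and 18.7 CPM in 22-week BPH/2J. The 6 BPH/2J libraries lay close together at both ages, and all were far below the BPN/3J libraries. Heyl was 3.05-fold lower in BPH/2J at 22 weeks (log2 difference -1.61 ± 0.07, adjusted p = 1.35e-07) and 3.01-fold lower at 4 weeks against BPN/3J (-1.59 ± 0.07, adjusted p = 1.2e-07). Between the ages of BPH/2J the difference was -0.02 ± 0.07 (adjusted p = 0.851). The authors' deposited table gives the 22-week line difference of Heyl a false discovery rate of 1.02e-55. That value comes from their own test on the same libraries, so it is not independent of the edgeR value given here. Both calls against BPN/3J were kept without each of the 9 libraries in turn. The 11 pericyte and smooth muscle markers summed to 1298 to 1527 CPM in BPN/3J, 1536 to 1914 CPM in 4-week BPH/2J and 1499 to 1791 CPM in 22-week BPH/2J. Of these markers, Rgs5, a pericyte gene, rose from a mean of 470 CPM in BPN/3J to 853 and 776 CPM in 4-week and 22-week BPH/2J, while Des, the gene of the muscle filament desmin, fell from 103 CPM to 32.5 and 39.2 CPM. At 22 weeks 1 of the 11 was called higher, 1 lower and 9 not, with a median log2 difference of 0.00, and in 4-week BPH/2J against BPN/3J 3 were higher and 1 lower. The cardiomyocyte markers were lower in the same groups as Heyl. Of these 12, 8 were called lower at 22 weeks and 10 at 4 weeks against BPN/3J. Their sums averaged 948 CPM in BPN/3J, 504 CPM in 4-week BPH/2J and 577 CPM in 22-week BPH/2J. Of the 10 macrophage and monocyte markers, 7 were called lower and 0 higher at 22 weeks. At 4 weeks against BPN/3J, 1 was lower and 1 higher. Over all genes tested, 18.2% were called lower and 19.8% higher at 22 weeks, and 25.3% and 27.8% at 4 weeks against BPN/3J. The part of these cell types in the Heyl difference was not tested.

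Hey1 (ENSMUSG00000040289, chromosome 3), the most abundant Hey repressor here, was at 217, 258 and 213 CPM in BPN/3J, 164, 182 and 200 CPM in 4-week BPH/2J and 184, 174 and 164 CPM in 22-week BPH/2J. Both BPH/2J groups were below BPN/3J without overlap and overlapped each other. Hey1 was 1.32-fold lower in BPH/2J at 22 weeks (log2 difference -0.40 ± 0.09, adjusted p = 0.0078) and 1.26-fold lower at 4 weeks against BPN/3J (-0.33 ± 0.09, adjusted p = 0.0124). The age difference was -0.06 ± 0.09 (adjusted p = 0.617). The first call was kept without each library in turn, and the other was lost without BPN/3J replicate 2 (adjusted p = 0.0573).

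Hes1 (ENSMUSG00000022528, chromosome 16), a repressor that many signals besides Notch also induce, was at 109, 143 and 156 CPM in BPN/3J, 105, 84.4 and 88.3 CPM in 4-week BPH/2J and 120, 120 and 136 CPM in 22-week BPH/2J. The 4-week libraries were below both 22-week groups, which overlapped. Hes1 was 1.47-fold lower in 4-week BPH/2J than in BPN/3J (log2 difference -0.55 ± 0.13, adjusted p = 0.00433), a call kept without each library in turn. It was 1.35-fold higher at 22 than at 4 weeks (0.44 ± 0.13, adjusted p = 0.0203), a call lost without 4-week replicate 2 (adjusted p = 0.0731), 4-week replicate 3 (0.0669) or 22-week BPH/2J replicate 3 (0.0724). The line difference at 22 weeks was -0.12 ± 0.13 (adjusted p = 0.495).

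Hey2 (ENSMUSG00000019789, chromosome 10), known as an arterial and cardiac repressor, was the lowest of the 10 genes. It was at 6.18, 7.09 and 7.44 CPM in BPN/3J, 6.17, 4.65 and 6.35 CPM in 4-week BPH/2J and 7.98, 6.21 and 6.57 CPM in 22-week BPH/2J. All groups overlapped. The log2 difference was 0.00 ± 0.15 between the lines (adjusted p = 0.984), 0.27 ± 0.15 between the ages (adjusted p = 0.185) and -0.27 ± 0.15 for 4-week BPH/2J against BPN/3J (adjusted p = 0.17).

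RBPJ sites share the core letters TGGGAA, which were searched on both strands (TTCCCA on the other) in the RefSeq promoter windows of build GRCm38.p6, from 250 bases before to 50 bases after each gene start. Windows were matched by symbol for 7 of the 10 genes, all but Hey1, Heyl and Hes1. Hey2 was the 1 gene of these 7 whose window held the letters, and its window is printed because it does. Of all 32851 windows, 8397 (25.6%) held them, and that of Nrarp did not. In Hey2 they begin 207 bases upstream of the start, on the opposite strand, and 3 bases upstream, on the gene's strand. The window is chr10:30842734-30843033 on the minus strand, with the matching letters in capitals. A match of letters describes the sequence and shows no binding.
Hey2: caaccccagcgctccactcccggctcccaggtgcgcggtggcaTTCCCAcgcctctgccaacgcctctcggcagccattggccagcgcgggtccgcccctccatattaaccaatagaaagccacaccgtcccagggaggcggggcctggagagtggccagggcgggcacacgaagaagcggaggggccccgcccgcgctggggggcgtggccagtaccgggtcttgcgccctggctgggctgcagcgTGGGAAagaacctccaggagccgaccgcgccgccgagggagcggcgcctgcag

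The make-up of each family was compared as shares of its summed length-scaled CPM. Among the 4 ligands, Dll4 made up 37.4 ± 2.02% in BPN/3J libraries, and in BPH/2J it made up 44.2 ± 2.09% at 4 weeks and 45.7 ± 1.24% at 22 weeks. Jag2 made up 47.6 ± 2.02%, 41.5 ± 3.49% and 37.8 ± 1.06% in the same order. Jag2 thus had the largest mean share in BPN/3J and Dll4 in both BPH/2J groups. In 4-week BPH/2J replicate 3 the order was the reverse, with Jag2 at 45.0% and Dll4 at 41.8%. Before length scaling, the 4-week means were close, 392 CPM for Dll4 and 389 CPM for Jag2. Jag1 had 7.48 ± 0.176%, 8.84 ± 1.45% and 10.1 ± 0.776%, and Dll1 had 7.52 ± 0.728%, 5.43 ± 0.563% and 6.39 ± 0.241%. For the share of Dll4, the line difference at 22 weeks was 8.35 percentage points (two-sided exact permutation test, p = 0.1, the smallest that 3 against 3 libraries can give, and 0.225 adjusted over 9 comparisons of shares). The 4-week BPH/2J libraries differed from BPN/3J by 6.86 points in the same exact test (p = 0.1, adjusted 0.225), and the BPH/2J ages by 1.48 points (p = 0.4, adjusted 0.450).

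Among the 4 receptors, Notch2 and Notch3 included, Notch4 made up 67.5 ± 0.479% in BPN/3J libraries, and in BPH/2J it made up 69.1 ± 2.47% at 4 weeks and 68.7 ± 1.48% at 22 weeks. None of its 3 differences, 1.21, -0.455 and 1.67 points for line, age and 4-week BPH/2J against BPN/3J, had an exact permutation p below 0.3. Among the 3 Hey genes, Hey1 made up 88.7 ± 1.06%, 93.5 ± 0.844% and 92.8 ± 0.536% in the same group order. Heyl made up 8.97 ± 0.887% in BPN/3J libraries, and in BPH/2J it made up 3.95 ± 0.403% at 4 weeks and 4.04 ± 0.426% at 22 weeks. The Hey1 share was 4.07 points higher in 22-week BPH/2J and 4.79 points higher in 4-week BPH/2J than in BPN/3J (exact permutation p = 0.1 and adjusted 0.225 for both), and differed by -0.711 points between the ages (p = 0.3, adjusted 0.450).

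**Figure D3:**
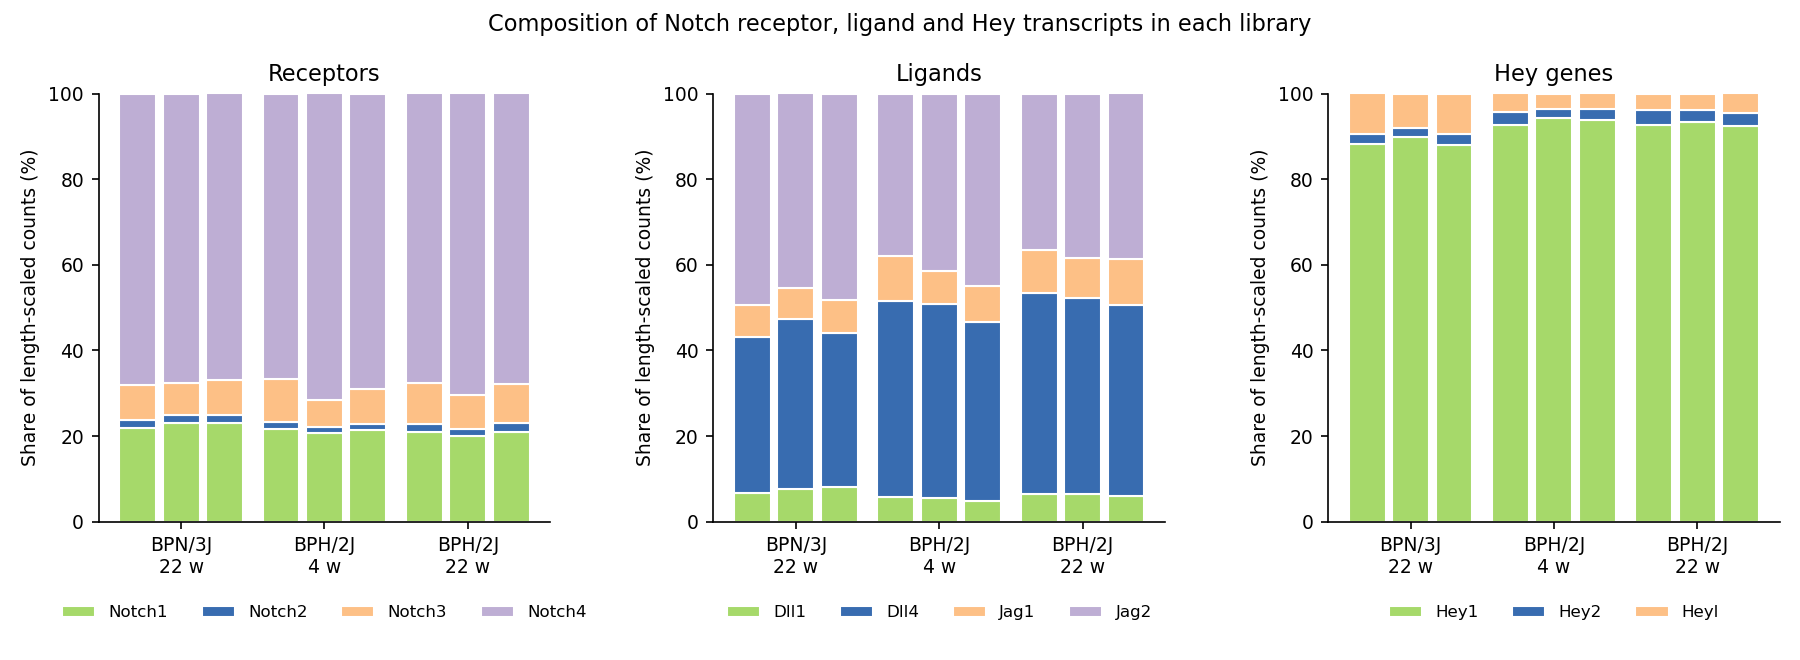
Share of each gene in the summed length-scaled counts of the receptors, ligands and Hey genes (percent of the family, vertical axis), as 1 stacked bar per library in the 3 groups. The mean Dll4 share is 37.4% in BPN/3J and 45.7% in 22-week BPH/2J, the group means of Notch4 lie between 67.5% and 69.1%, and those of Hey1 between 88.7% and 93.5%.

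The rest of the pathway was described with lists of 58 further genes by role, of which 54 had a row and 53 were tested. These lists, and the arterial and venous lists below, were chosen with earlier results of these data known. At 22 weeks, 11 of the 53 were called higher in BPH/2J and 10 lower, with a median log2 difference of -0.01. Between the ages of BPH/2J, 9 were higher at 22 weeks and 8 lower (median 0.03). For 4-week BPH/2J against BPN/3J, 9 were higher and 15 lower (median -0.05). Over all genes tested, 19.8% were called higher and 18.2% lower at 22 weeks, and 19.9% and 21.1% between the ages. For 4-week BPH/2J against BPN/3J these shares were 27.8% and 25.3%. Rbpj, the DNA-binding partner of the cleaved receptor, stood at 57.8 ± 1.20, 54.2 ± 0.732 and 58.8 ± 2.99 CPM in BPN/3J, 4-week and 22-week BPH/2J and was called in none of the 3 contrasts (adjusted p = 0.754 for line, 0.111 for age and 0.176 for 4-week BPH/2J against BPN/3J).

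Of the other receptors, Notch2 was lower in both BPH/2J groups (28.6 ± 2.81 CPM at 4 weeks and 30.4 ± 2.13 CPM at 22 weeks) than in BPN/3J (37.1 ± 1.87 CPM), with log2 differences of -0.38 ± 0.09 (adjusted p = 0.00385) and -0.29 ± 0.09 (adjusted p = 0.0222). Notch3, the receptor of mural cells, stood at 123 ± 15.1, 119 ± 12.6 and 108 ± 7.63 CPM in BPN/3J, 4-week and 22-week BPH/2J and was not called in any contrast (adjusted p from 0.183 to 0.747). Among the atypical ligands, Nov (CCN3), a matricellular protein that can bind Notch1, was at 55.3 ± 2.10 CPM in BPN/3J, 32.9 ± 2.14 CPM in 4-week BPH/2J and 70.0 ± 5.34 CPM in 22-week BPH/2J. It was higher in 22-week BPH/2J than in BPN/3J (0.34 ± 0.07, adjusted p = 0.00439) and than at 4 weeks (1.09 ± 0.07, adjusted p = 1.14e-05). Egfl7, a secreted endothelial protein known as a Notch modulator, was higher in 22-week BPH/2J (942 ± 24.6 CPM) than in BPN/3J (798 ± 69.0 CPM, adjusted p = 0.0368) and 4-week BPH/2J (780 ± 44.0 CPM, adjusted p = 0.0197). Dlk1, a Delta-like protein, was lower in 22-week BPH/2J than in BPN/3J (-1.69 ± 0.43, adjusted p = 0.0111), from a mean of only 0.602 CPM.

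The sugar transferases modify the receptor and tune which ligands it answers to. At 22 weeks, 2 of 5 were called higher in BPH/2J and 0 lower, beside 19.8% and 18.2% of all genes. Lfng, a Fringe that favours Delta-like ligands, was at 32.0 ± 1.92 CPM in BPN/3J, 49.4 ± 6.39 CPM in 4-week BPH/2J and 42.8 ± 3.30 CPM in 22-week BPH/2J. Its log2 difference from BPN/3J was 0.63 ± 0.10 at 4 weeks (adjusted p = 0.000349) and 0.42 ± 0.10 at 22 weeks (adjusted p = 0.00717). Pofut1, which adds the fucose that Fringes extend, was higher by 0.29 ± 0.07 (adjusted p = 0.00368) and 0.31 ± 0.07 (adjusted p = 0.0045) in the same contrasts. Rfng, a further Fringe, was lower in 4-week BPH/2J than in BPN/3J (-0.23 ± 0.06, adjusted p = 0.0118).

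The next list held 10 genes, for the proteases that cut Notch receptors and for the gamma-secretase subunits, not all of them catalytic. In BPH/2J at 22 weeks, 4 were called higher and 0 lower, beside 19.8% and 18.2% of all genes. Between the ages, 4 were higher and 2 lower, beside 19.9% and 21.1% of all genes. In 4-week BPH/2J against BPN/3J, 4 were higher and 4 lower, beside 27.8% and 25.3%. Adam10, the main ligand-dependent protease of the receptor, was at 251 ± 3.66 CPM in BPN/3J, 450 ± 17.0 CPM in 4-week BPH/2J and 380 ± 26.2 CPM in 22-week BPH/2J. It was higher than BPN/3J by 0.84 ± 0.07 at 4 weeks (adjusted p = 3.51e-06) and by 0.60 ± 0.07 at 22 weeks (adjusted p = 7.75e-05), and fell by 0.25 between the ages (adjusted p = 0.0126). Adam17, a related sheddase, was at 139 ± 1.06, 213 ± 34.2 and 173 ± 3.08 CPM in BPN/3J, 4-week and 22-week BPH/2J. It was higher than in BPN/3J at 4 weeks (0.62 ± 0.10, adjusted p = 0.000401) and at 22 weeks (0.32 ± 0.10, edgeR adjusted p = 0.0259). Its age difference of -0.30 ± 0.10 was called (adjusted p = 0.033), though the ages overlapped. Among the gamma-secretase subunits, Psen2 was lower at 4 weeks (19.4 ± 1.53 CPM) than in BPN/3J (28.3 ± 2.35 CPM, adjusted p = 0.000319) and in 22-week BPH/2J (27.0 ± 0.777 CPM, adjusted p = 0.00128), and Aph1a was higher in 22-week BPH/2J than in BPN/3J (0.25 ± 0.05, adjusted p = 0.00438). Aph1b was lower at 4 weeks (13.5 ± 0.730 CPM) than in BPN/3J (24.1 ± 1.43 CPM) and 22-week BPH/2J (28.3 ± 0.846 CPM), with adjusted p = 8.17e-06 and 1.22e-05. These values are uncertain, since Aph1b has a near-identical copy, Aph1c, between which reads could be split.

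Ligand endocytosis in the sending cell pulls on the receptor. Of its 6 genes, 1 was called higher and 2 lower in BPH/2J at 22 weeks, beside 19.8% and 18.2% of all genes. Mib2, a ubiquitin ligase of Notch ligands, was at 58.3 ± 4.85 CPM in BPN/3J, 39.6 ± 6.88 CPM in 4-week BPH/2J and 43.1 ± 3.80 CPM in 22-week BPH/2J (adjusted p against BPN/3J = 0.0029 and 0.0169). The ubiquitin ligase gene Neurl1a, at under 1 CPM on average in each group, was lower in 22-week BPH/2J than in BPN/3J (-1.63 ± 0.37, adjusted p = 0.00642) and than at 4 weeks (-1.45 ± 0.38, adjusted p = 0.0109). Epn2, an endocytic adaptor, was higher at 22 than at 4 weeks in BPH/2J (0.43 ± 0.07, adjusted p = 0.000571) and in 22-week BPH/2J than in BPN/3J (adjusted p = 0.0226).

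Of the 13 nuclear partners, 2 were called higher and 3 lower in BPH/2J at 22 weeks, beside 19.8% and 18.2% of all genes. Between the ages the counts were 2 and 2, beside 19.9% and 21.1%. In 4-week BPH/2J against BPN/3J they were 1 and 5, beside 27.8% and 25.3%. Ep300, the acetyltransferase of the active complex, was at 233 ± 24.3 CPM in BPN/3J, 159 ± 10.5 CPM in 4-week BPH/2J and 163 ± 8.19 CPM in 22-week BPH/2J (log2 differences of -0.55 ± 0.08, adjusted p = 0.000283, and -0.52 ± 0.08, adjusted p = 0.000902). Kat2b, another acetyltransferase, was lower at 22 weeks in BPH/2J than in BPN/3J (-0.34 ± 0.06, adjusted p = 0.00148). It was also called lower in 4-week BPH/2J against BPN/3J. Maml2, a coactivator that bridges the receptor to RBPJ, was lower at 4 weeks (55.0 ± 2.53 CPM) than in BPN/3J (77.6 ± 3.05 CPM, adjusted p = 5.7e-05) and in 22-week BPH/2J (74.0 ± 2.97 CPM, adjusted p = 0.000334). The acetyltransferase gene Kat2a had its highest level at 4 weeks (80.3 ± 7.98 CPM, against 45.0 ± 4.82 CPM in BPN/3J, adjusted p = 4.38e-05, and 53.5 ± 3.45 CPM in 22-week BPH/2J, adjusted p = 0.000858). Cir1, an RBPJ corepressor, was higher in 22-week BPH/2J than in BPN/3J (0.38 ± 0.07, adjusted p = 0.00135) and than at 4 weeks (0.59 ± 0.07, adjusted p = 8.81e-05), and Snw1, another RBPJ partner, was higher in the former contrast (0.27 ± 0.08, adjusted p = 0.0173).

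Of the 11 turnover and negative regulators, 0 were called higher and 3 lower in BPH/2J at 22 weeks, beside 19.8% and 18.2% of all genes. Between the ages the counts were 0 and 3, beside 19.9% and 21.1%. In 4-week BPH/2J against BPN/3J they were 2 and 1, beside 27.8% and 25.3%. Nrarp, a Notch target that limits Notch signalling, was at 182 ± 21.1 CPM in BPN/3J, 181 ± 13.9 CPM in 4-week BPH/2J and 145 ± 8.75 CPM in 22-week BPH/2J. It was lower in 22-week BPH/2J than in BPN/3J (-0.33 ± 0.09, adjusted p = 0.0173) and than at 4 weeks (-0.32 ± 0.09, adjusted p = 0.0182), with a difference of -0.01 (adjusted p = 0.94) between 4-week BPH/2J and BPN/3J. Nle1 was higher at 4 weeks (15.3 CPM) than in BPN/3J (8.92 CPM, adjusted p = 0.000145) and 22-week BPH/2J (10.7 CPM, adjusted p = 0.00311). The Deltex gene Dtx2 was lower in 22-week BPH/2J than in BPN/3J (-0.27 ± 0.07, adjusted p = 0.0134) and than at 4 weeks (-0.20 ± 0.07, edgeR adjusted p = 0.0473). Dtx3 was lower than in BPN/3J in 4-week BPH/2J (-0.36 ± 0.08, adjusted p = 0.00251) and in 22-week BPH/2J (-0.25 ± 0.08, edgeR adjusted p = 0.0264). Numb, an inhibitor of the receptor, was higher in 4-week BPH/2J than in BPN/3J (0.17 ± 0.06, adjusted p = 0.0454). Of the 5 other Hes genes, 2 were tested and neither was called in any contrast.

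**Figure D4:**
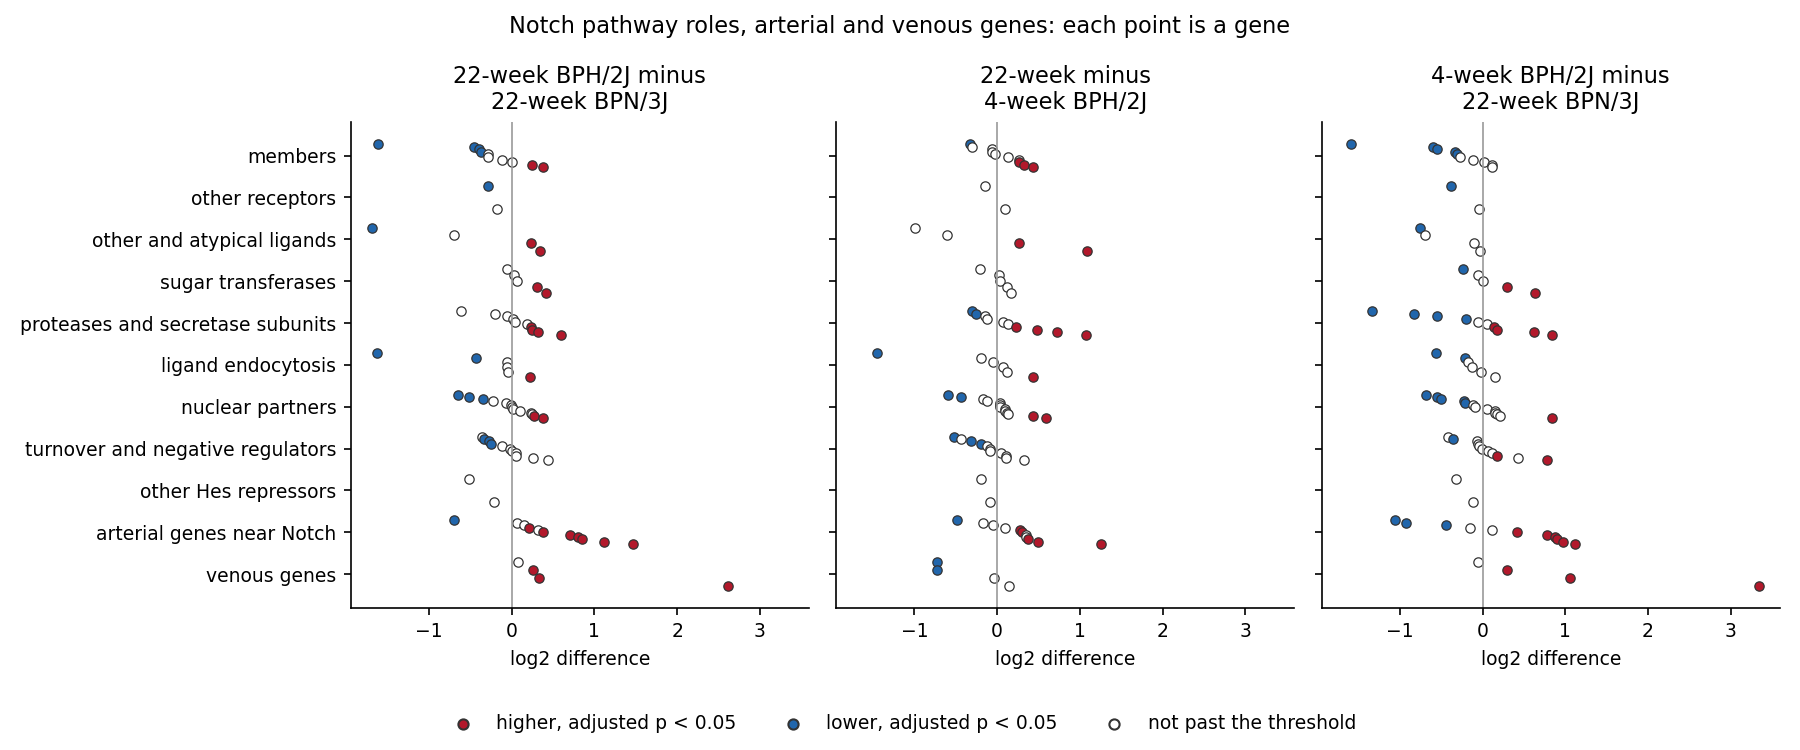
Log2 differences (horizontal axis) in the 3 contrasts for the 10 Notch genes (top row, members), the further pathway genes by role, and the arterial and venous genes, with 1 point per gene, red where called higher, blue where called lower and white where not called. In the line contrast, 4 of the 10 protease and gamma-secretase genes are called above 0 and none below. Of the 11 turnover genes, 3 are called below 0 and none above. Over all genes tested in that contrast, 19.8% are called higher and 18.2% lower. In 4-week BPH/2J against BPN/3J, 4 of the protease and gamma-secretase genes are called above 0 and 4 below. Over all genes in that contrast, 27.8% are called higher and 25.3% lower.

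Of 11 arterial genes that are often studied with Notch, 7 were called higher and 1 lower in BPH/2J at 22 weeks (median log2 difference 0.38), 5 higher and 1 lower at 22 than at 4 weeks (median 0.30), and 6 higher and 3 lower in 4-week BPH/2J against BPN/3J (median 0.42). Over all genes tested, 19.8% were called higher and 18.2% lower in the first of these contrasts, 19.9% and 21.1% between the ages, and 27.8% and 25.3% in the last. Gja4, an arterial gap junction gene, was at 27.3 ± 3.61 CPM in BPN/3J, 59.2 ± 10.9 CPM in 4-week BPH/2J and 75.4 ± 7.00 CPM in 22-week BPH/2J, with adjusted p = 6.43e-05 and 2.55e-05 against BPN/3J. Unc5b, a netrin receptor of arteries and tip cells, was at 206 ± 9.10, 404 ± 33.0 and 359 ± 22.8 CPM in the same order (adjusted p = 3.86e-06 and 3.12e-05). Sox17, an arterial transcription factor, was the 1 gene of the list called lower at 22 weeks, at 238 ± 3.23 CPM in BPN/3J, 114 ± 9.42 CPM in 4-week BPH/2J and 147 ± 5.30 CPM in 22-week BPH/2J (log2 differences of -1.06 ± 0.07, adjusted p = 8.47e-07, and -0.70 ± 0.07, adjusted p = 3.01e-05). Between the ages, Acvrl1, a BMP receptor of endothelium (0.49 ± 0.06, adjusted p = 0.000182), and Bmx, an arterial kinase (1.25 ± 0.22, adjusted p = 0.0013), were higher at 22 weeks, and Sox7, a related transcription factor, was lower (-0.49 ± 0.12, adjusted p = 0.00943). Acvrl1 was also lower in 4-week BPH/2J than in BPN/3J (-0.44 ± 0.06, adjusted p = 0.000196).

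Of 4 venous genes, 3 were called higher and 0 lower in BPH/2J at 22 weeks, 0 and 2 between the ages, and 3 and 0 in 4-week BPH/2J against BPN/3J, beside the same shares over all genes. The 3 called higher at 22 weeks fell to 1 without any 1 of the BPN/3J replicates or without 22-week BPH/2J replicate 2. Aplnr, the apelin receptor, was at 67.3 ± 9.09 CPM in BPN/3J, 681 ± 43.0 CPM in 4-week BPH/2J and 414 ± 73.1 CPM in 22-week BPH/2J (adjusted p against BPN/3J = 6.33e-08 and 4.27e-07). Nrp2, a coreceptor of veins and lymphatics, was at 556 ± 17.8, 1162 ± 116 and 701 ± 94.6 CPM in the same order (adjusted p = 1.62e-05 and 0.0283), and fell by 0.73 between the ages of BPH/2J (adjusted p = 0.000414). The median of the 4 genes was 0.30 for line, -0.38 for age and 0.68 for 4-week BPH/2J against BPN/3J, on the log2 scale. Against BPN/3J, the arterial list had 7 genes called higher and 1 lower in BPH/2J at 22 weeks, and 6 and 3 at 4 weeks. Of the 8 general endothelial markers, 5 were called higher and 2 lower at 22 weeks, and 3 and 1 at 4 weeks. How these lists relate to each other was not tested.

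The gene nearest to each of the 10 in pattern was the one with the smallest root mean square difference of log2 CPM deviations over the 9 libraries, among 10552 candidates. Notch1 was nearest to Sptan1 (0.066), Notch4 to Zfp276 (0.050), Dll1 to Plcg1 (0.076), Dll4 to Zkscan1 (0.045), Jag1 to Ormdl3 (0.071) and Jag2 to Ptger1 (0.055). Among the targets, Hey1 was nearest to Kin (0.064), Hey2 to Gucy1b3 (0.064) and Hes1 to Dock10 (0.094). Heyl had the least close neighbour, Tnfrsf10b (0.168), and also the widest spread of its own, 0.756 on the same scale. Among the 50 genes nearest to each, Notch1 and Notch4 had 1 other of the 10 genes each and the other 8 had none. The measure describes these 9 libraries and shows nothing of shared control.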

How the data were processed

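RNA was measured in 9 libraries of bead-sorted mouse cardiac endothelium. Per the submitters' processing notes, TopHat2 2.0.13, Bowtie2, CASAVA 1.8.2, featureCounts, Subread, FastQC and edgeR were used with genome build mm9, with no roles stated. Per the file headers, the authors deposited raw counts, CPM, log2 fold changes and p-values with false discovery rates. The deposited CPM equalled count over column total within 0.0005. Lengths came from the same table.

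Genes kept by filterByExpr (15277) were tested with the two-sided quasi-likelihood F test of edgeR 4.0.16 on the counts, with all 9 libraries in 1 fit, TMM scaling and Benjamini-Hochberg adjustment over all tested genes (threshold 0.05). SE was the absolute log2 difference over the square root of F. Shares were compared by exact permutation tests in scipy 1.17.1. The pipeline was tested on simulated data. A floor of 3 counts was 0.0911 to 0.104 CPM, which covers counting error only.

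The members and lists were chosen with earlier results of these data known. From the lists, up to 2 called genes per direction, list and contrast with the smallest adjusted p were named, plus Notch2, Notch3, Rbpj and Nrarp. One gene that this rule would name is not reported here. Alternatives were other scalings, filters, DESeq2 1.42.0, limma-voom (limma 3.58.1), other fits, a threshold of 0.01, the replicate block and leaving out each library. Work used R 4.3.3 and Python 3.11.15. Gene overlaps and positions in order came from GENCODE M21 and promoters from RefSeq, both on GRCm38, a later build than mm9. A further deposited comparison of all groups was not used.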

Additional observations from a re-analysis of the deposited data

How the results depend on the processing

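Over 10 settings and the 30 differences of the Notch genes (300 values), 282 kept direction and call, 15 were no longer called, 2 became called and 1 reversed, Heyl between the ages (0.01 under upper-quartile scaling). Of the 15, 9 came from an adjusted p threshold of 0.01, under which 1 gene was higher and 2 were lower between the lines, 0 and 0 between the ages, and 3 lower in 4-week BPH/2J against BPN/3J. The 1 gene lower with age, Notch1, was lost to 0 under upper-quartile scaling, no low-count filter, the 1 CPM filter, limma-voom and a fit of only the groups compared (adjusted p from 0.0501 to 0.0645). Jag2 in 4-week BPH/2J against BPN/3J was lost in the fit of only those groups (0.0649). Dll1 between the lines was called by DESeq2 (0.0418) and Notch4 in the fit of only those groups (0.0201). Leaving out each library gave 1 to 2 higher and 2 to 5 lower between the lines, 0 to 3 and 0 to 2 between the ages, and 3 to 5 lower in 4-week BPH/2J against BPN/3J. The signs that turned without a library were those of uncalled differences: between the lines, Hey2 (-0.11 to 0.08), between the ages, Jag2 (-0.18 to 0.06), Hey1 (-0.13 to 0.02) and Heyl (-0.07 to 0.04), and for 4-week BPH/2J against BPN/3J, Notch1 (-0.19 to 0.01) and Notch4 (-0.10 to 0.18). Of the further pathway genes, 6 were higher and 4 lower between the lines and 2 lower between the ages at 0.01, and leaving out each library gave 6 to 12, 5 to 12 and 3 to 13. Of the venous genes, 1 was higher between the lines at 0.01, and 1 to 3 when each library was left out. Without length scaling, the share of Dll4 was 34.9%, 41.2% and 42.4% in BPN/3J, 4-week and 22-week BPH/2J, that of Notch4 57.2%, 59.2% and 59.0%, and that of Hey1 79.1%, 88.5% and 87.7%. No pairing by replicate number was visible, which does not exclude it. Residual correlations between groups ran from -0.16 to 0.08 for equal replicate numbers and from -0.12 to 0.14 for other numbers. The replicate block changed no call of the 10 genes, with 2 higher and 4 lower, 3 and 1, and 0 and 5. With that block, 5261, 5758 and 7723 genes were called in all. With 3 libraries a group, changes of the size of the uncalled ones may go undetected. The causes of these shifts were not tested.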

Other observations

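The 5 tested genes on each side of Heyl on chromosome 4, taken after its values were seen, were examined for the same contrasts. Of these 10 neighbours, 1 was called higher and 2 lower in BPH/2J than in BPN/3J at 22 weeks, and 7 were not called, beside 38.0% of all genes called. Rhbdl2, a rhomboid protease, was the higher one (log2 difference 1.67 ± 0.30, edgeR adjusted p = 0.00161), and Ppt1, a lysosomal thioesterase (-0.35 ± 0.07, adjusted p = 0.0037), and Macf1, a cytoskeletal linker (-0.35 ± 0.13, adjusted p = 0.0473), were lower. The adjacent genes Ppie (0.21 ± 0.11, adjusted p = 0.134) and Pabpc4 (0.07 ± 0.07, adjusted p = 0.473) were not called. Between the ages of BPH/2J, 1 neighbour was higher and 4 lower, and in 4-week BPH/2J against BPN/3J 4 were higher and 1 lower, beside 41.0% and 53.1% of all genes called. Rhbdl2 was among these, at -1.65 ± 0.21 between the ages (edgeR adjusted p = 0.000217) and 3.32 ± 0.26 in 4-week BPH/2J against BPN/3J (adjusted p = 3.6e-06). The neighbours' shares called are near those over all genes.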
